A study of Mus musculus with 12 samples.

Results

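The methylation of Inpp5f and Impact was read from reduced representation bisulfite sequencing (RRBS) data, a method in which genomic DNA is cut with MspI at CCGG sites, treated with bisulfite and sequenced, so that CG-rich stretches are read preferentially. The series held 12 libraries in 6 groups of 2, all from mouse cells of the strain labelled C57BL6. ESC libraries came from female embryonic stem cells derived from fertilized blastocysts, and pESC libraries came from parthenogenetic embryonic stem cells. The latter were derived from oocytes activated without sperm and so held maternal genomes only. According to the study's methods, both kinds of stem cell carried an Actin-GFP transgene and were grown on mouse embryonic fibroblast feeders, whose part in the stem cell libraries was not tested. ESC-PGCLC and pESC-PGCLC libraries came from primordial germ cell-like cells induced from these stem cells and sorted for CD61 and SSEA1. Induction ran through 2 days as epiblast-like cells and 4 further days with BMP4, SCF, EGF and LIF. E9.5_PGC and E12.5_PGC libraries came from primordial germ cells of female embryos at embryonic day 9.5 and 12.5, isolated by CD61 and SSEA1 sorting or by SSEA1 magnetic beads. The study calls its RRBS replicates biological, without saying whether the libraries of a group came from separate lines, cultures or litters, and the p-values below measure the spread between these libraries only.

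Every row of the level files that carried the identifier of Inpp5f (ENSMUSG00000042105) or Impact (ENSMUSG00000024423) was taken, together with each CpG island and island shore lying inside their spans. This gave 9 features of 176831 in the series, 7 of Inpp5f and 2 of Impact, and all 9 had a level in all 12 libraries. Inpp5f spans chr7:128611328-128696425 on the plus strand of mm10, and Impact spans chr18:12955852-12992950, also on the plus strand. The Inpp5f features were the promoter, 5-prime UTR, exon and intron rows, an island of 458 bp at the 5-prime end of the gene (chr7:128611383-128611840), its shore of 2002 bp and an internal island of 613 bp (chr7:128687970-128688582) that began 76642 bp from the start of the gene. The Impact features were the intron row and an internal island of 1304 bp (chr18:12973117-12974420) that began 17265 bp from the start of the gene span. In GENCODE M21 the internal island of Inpp5f lay in intron 15 of the full-length transcript Inpp5f-201 and ran 94 bp into exon 1 of the short transcripts Inpp5f-203 and Inpp5f-209, which start at position 128688489. The island of Impact lay in intron 1 of the 11-exon transcript Impact-201 and overlapped exon 1 of the shorter Impact-204 by 123 bp.

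Genomic imprinting is the expression of a gene from only the maternal or only the paternal chromosome, and it is set by DNA methylation that an egg or sperm places on a control region and that the embryo keeps on that chromosome alone. Primordial germ cells erase these marks so that they can be laid down anew according to the sex of the germ line. Inpp5f encodes an inositol phosphatase with a Sac domain that acts on membrane phosphoinositides in the endocytic pathway. Its full-length transcript comes from both chromosomes, whereas a short internal transcript is expressed from the paternal chromosome and starts at an island that is methylated on the maternal one. Impact encodes a protein that restrains the kinase GCN2 and thereby the cell's response to amino acid shortage. It is expressed from the paternal chromosome in mouse, and the island in its first intron is methylated on the maternal chromosome in the egg.

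The islands of Inpp5f differ in sequence as well as in position, and a stretch of each is shown because the methylation results below diverge between them. The letters are those of the reference genome (GRCm38.p6, plus strand, 5′ to 3′), and every CG, the site at which methylation is read, is in capitals. The first stretch is the part of the 5-prime island that lies in the first intron (chr7:128611692-128611840). The second is the part of the internal island just before the start of the short transcripts (chr7:128688189-128688488).
Inpp5f 5-prime island: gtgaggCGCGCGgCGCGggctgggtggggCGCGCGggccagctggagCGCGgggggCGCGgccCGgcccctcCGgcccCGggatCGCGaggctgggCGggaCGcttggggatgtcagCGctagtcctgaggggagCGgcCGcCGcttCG
Inpp5f internal island: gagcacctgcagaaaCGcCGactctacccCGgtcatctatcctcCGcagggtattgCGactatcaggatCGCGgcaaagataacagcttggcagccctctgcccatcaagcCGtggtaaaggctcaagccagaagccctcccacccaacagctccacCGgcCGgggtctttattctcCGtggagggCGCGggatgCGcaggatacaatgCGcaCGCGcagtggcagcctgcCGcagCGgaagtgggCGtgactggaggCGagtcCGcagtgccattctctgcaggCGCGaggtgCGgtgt
The first stretch held 24 CG in 149 bases and the second held 25 CG in 300 bases.

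Over their whole length both islands of Inpp5f held the same number of CG but not of MspI sites. The 5-prime island of Inpp5f held 55 CG, 8 CCGG sites and 75.3% G+C, and its internal island held 55 CG, 5 CCGG sites and 63.5% G+C. The Impact island was longer, with 108 CG, 4 CCGG sites and 63.6% G+C. The letters TGCCGC, the sequence that the imprint-keeping zinc finger protein ZFP57 binds when its CG is methylated, were searched on both strands. They were found 6 times in the Inpp5f internal island, 4 times in the Impact island and not in the Inpp5f 5-prime island. In windows of equal length, 600 bp around the centre of each island, the counts were 5, 2 and 0. Of 14559 islands, 48.1% held at least 1 such match in this window, 16.4% held at least 2 and 0.412% held at least 5. A match is a description of the letters and not evidence of binding.

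The libraries differed in their overall level, and this bears on every comparison below. Over the 133311 features with a level in all 12 libraries, the mean level was 23.6% ± 3.27 (SD, n = 2) in ESC, 23.6% ± 0.607 in pESC, 36.4% ± 0.167 in E9.5_PGC, 24.3% ± 0.235 in E12.5_PGC, 29.5% ± 0.0789 in ESC-PGCLC and 27.4% ± 0.268 in pESC-PGCLC. The pair of ESC libraries stood apart from each other, with 24.5% of features differing by at least 10 points between them against 2.99% to 6.78% in the other groups. The main differences that rest on ESC are therefore also given without each ESC library, an alternative that for island counts and gene lists was chosen after the data were seen. The files held levels only, so the read depth behind a value is unknown. A level averages over all cells and both chromosomes of a library, so that fewer cells with a methylated copy and fewer methylated sites per copy cannot be told apart.

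The internal islands of the 2 genes were lowest in ESC, at a similar level in pESC and both kinds of PGCLC, and highest in E9.5_PGC. The 5-prime island of Inpp5f was instead higher in both kinds of stem cell than in the germ cells and PGCLCs. The Inpp5f internal island measured 27.2% and 25.2% in the ESC libraries and 48.7% and 51.7% in the pESC libraries. It measured 61.0% and 56.7% in E9.5_PGC and 33.6% and 41.9% in E12.5_PGC. In the induced cells it measured 47.1% and 44.0% in ESC-PGCLC and 47.4% and 48.6% in pESC-PGCLC. No library of any group overlapped with a neighbouring group in this order, but the gap between pESC-PGCLC and pESC was only 0.0836 points and that between ESC-PGCLC and pESC-PGCLC only 0.279 points.

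The Impact island, on another chromosome, followed the same order of group means. Its level was 18.97% and 30.3% in ESC, and 49.4% and 55.9% in pESC. The E9.5_PGC libraries gave 58.2% and 61.0%, and the E12.5_PGC libraries gave 42.8% and 42.1%. The induced cells gave 47.2% and 48.6% for ESC-PGCLC and 50.8% and 49.1% for pESC-PGCLC. From the lowest to the highest mean, the groups ran ESC, E12.5_PGC, ESC-PGCLC, pESC-PGCLC, pESC and E9.5_PGC at both islands. The pESC and pESC-PGCLC libraries overlapped at Impact. Across the 12 libraries, which share their overall level as well as these marks, the islands of the 2 genes correlated with a Pearson r of 0.93. Within a library they differed by 0.117 to 9.24 points, and the ESC libraries disagreed on the sign, where Impact minus Inpp5f was -8.19 points in the first and 5.01 points in the second.

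**Figure D1:**
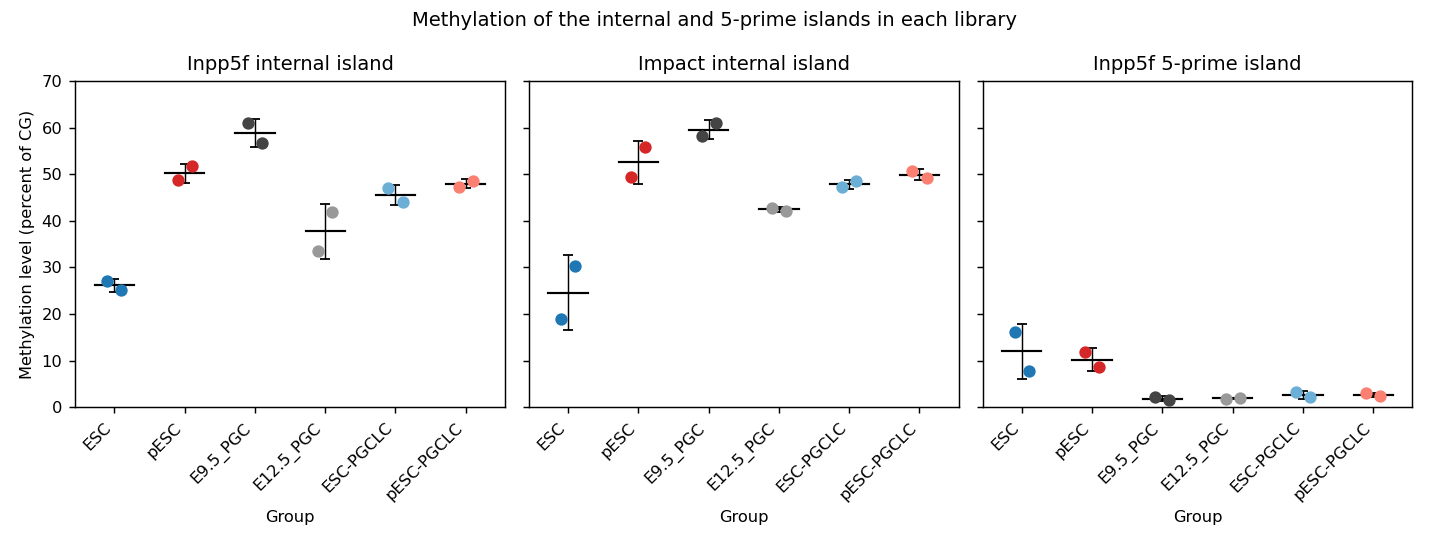
Methylation level (percent of CG, vertical axis) at the 2 internal islands and the 5-prime island of Inpp5f in each of the 6 groups. Points are libraries, lines are group means and bars are the SD over 2 libraries. The internal islands lie between 18.97% and 30.3% in ESC and between 33.6% and 61.0% in the other libraries, and the 5-prime island lies between 7.85% and 16.1% in the stem cell libraries and between 1.48% and 3.31% elsewhere.

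The 5-prime island of Inpp5f, which overlaps exon 1 of the full-length transcript, was methylated at a low level in stem cells and close to unmethylated in germ cells. Its level was 16.1% and 7.85% in ESC and 11.9% and 8.56% in pESC. It was 2.27% and 1.48% in E9.5_PGC, 1.89% and 2.05% in E12.5_PGC, 3.31% and 2.13% in ESC-PGCLC and 3.03% and 2.36% in pESC-PGCLC. The 4 stem cell libraries thus lay above all 8 germ cell and PGCLC libraries. The ESC and pESC libraries overlapped, as did those of E9.5_PGC and E12.5_PGC. Within a library the internal island exceeded the 5-prime island everywhere, by 14.2 ± 4.51 points (SD, n = 2) in ESC, 39.9 ± 4.47 in pESC and 57.0 ± 2.46 in E9.5_PGC.

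The remaining rows followed one or the other island. The Inpp5f promoter row, despite its name, gave the level of the internal island exactly in 4 of 12 libraries and differed from it by at most 3.39 points, so it is not independent of that island and is not counted as further evidence. The Inpp5f 5-prime UTR and exon rows followed the 5-prime island, with 5-prime UTR levels of 28.8% and 10.96% in ESC, 19.1% and 14.4% in pESC and 1.32% to 4.33% in the other 8 libraries. The shore of the 5-prime island gave 23.0% and 10.6% in ESC, 13.9% and 14.3% in pESC and 2.62% to 7.92% elsewhere. The Inpp5f intron row, a single level whose sites are not given, lay between, from 16.6% in an E12.5_PGC library to 35.0% in an E9.5_PGC library. The Impact intron row was 1.57 to 7.90 points above its island in each library and moved with it, at 26.9% and 36.1% in ESC, 53.1% and 57.7% in pESC and 61.9% and 63.9% in E9.5_PGC.

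**Figure D2:**
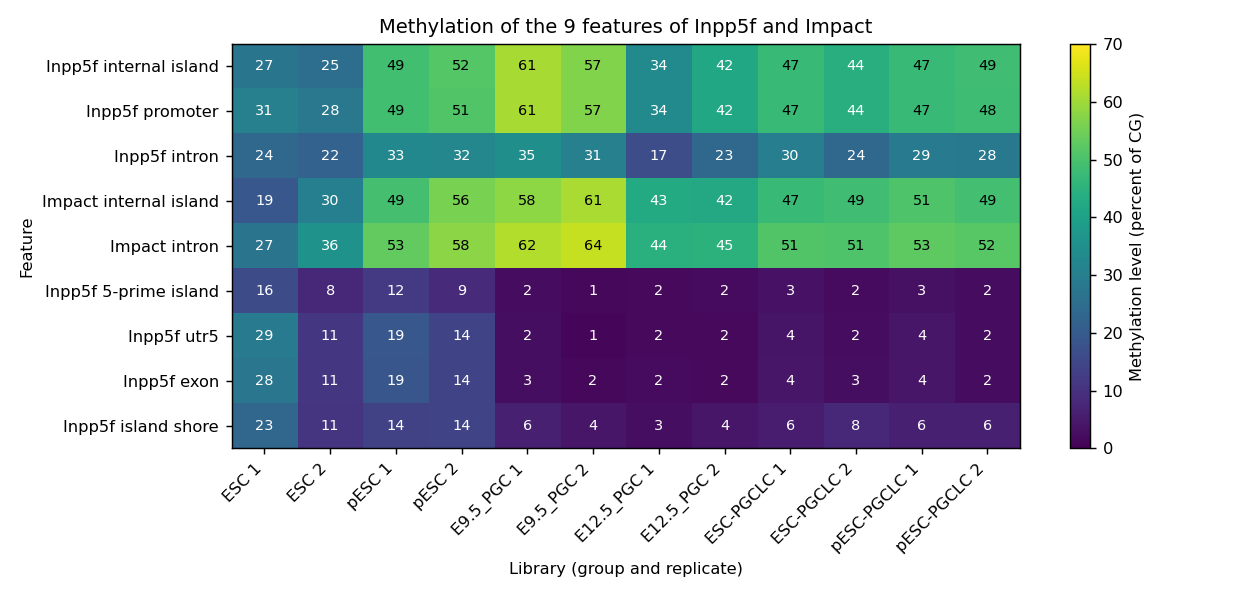
Methylation level (percent of CG, colour and printed whole percent) of the 9 features, rows, in the 12 libraries, columns. The upper 5 rows, which read the internal islands and the introns, have their highest single value in E9.5_PGC, although the other E9.5_PGC library lies below both pESC libraries in the Inpp5f intron row, and the lower 4 rows, which read the 5-prime end of Inpp5f, reach 7.85% or more in stem cells and stay at or below 7.92% in all other libraries.

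**Figure D3:**
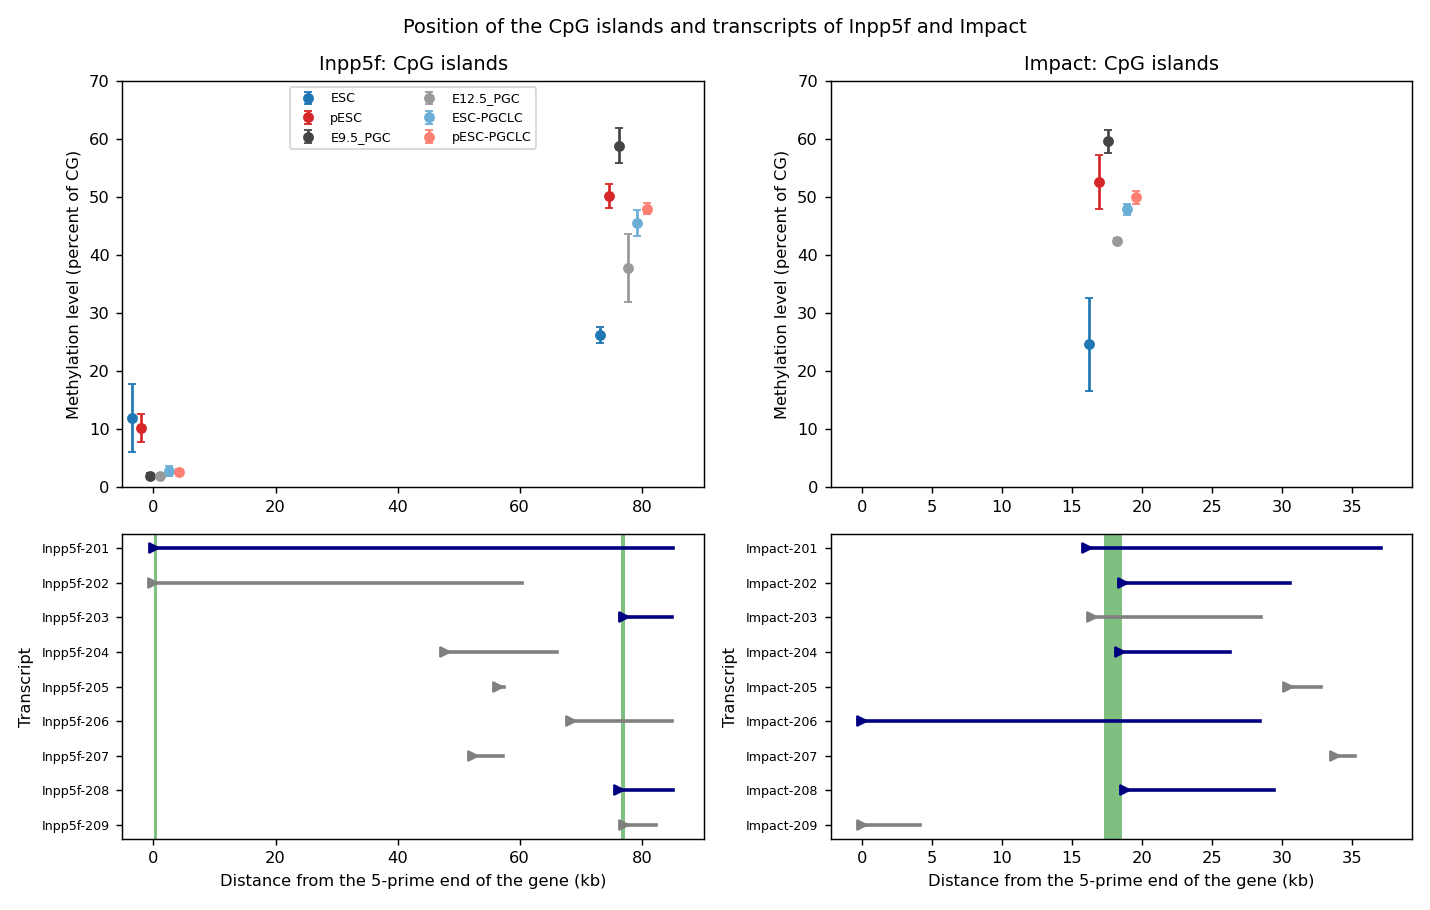
Upper panels give the mean level (percent of CG) ± SD over 2 libraries at each island, placed at its distance from the 5-prime end of the gene in kb, with the groups spread sideways for legibility. Lower panels give the annotated transcripts to scale, with an arrowhead at the start, protein-coding ones in navy and others in grey, and the islands as green bands. The group means of 1.88% to 11.99% at the 5-prime island of Inpp5f stand against 26.2% to 58.8% at its internal island.

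The first comparison asked whether stem cells with maternal genomes only differed from biparental stem cells. Both internal islands had the higher level in pESC, with no overlap between the libraries, but neither difference passed the test. At Inpp5f the means were 50.2% ± 2.09 (SD, n = 2) in pESC and 26.2% ± 1.35 in ESC, a difference of 24.0 points and a ratio of 1.92. At Impact they were 52.6% ± 4.61 and 24.6% ± 7.98, a difference of 28.01 points and a ratio of 2.14. A limma fit of the log2 odds over the 148012 features with a level in all 4 stem cell libraries called 0% of them at an adjusted p under 0.05 and at least 10 points, while 2054 had an unadjusted p under 0.05 and the lowest adjusted p was 0.0795. With all 12 libraries in 1 fit, 70 features were called, and with repeat elements left out 36 were, but neither island was among them. Without the first pESC library 742 features were called and without the second 91, again with neither island among them, and without either ESC library 0 were. On the log2 odds scale the difference was 1.47 ± 0.32 (SE) at the Inpp5f island (limma, adjusted p = 1.0) and 1.76 ± 0.41 at the Impact island (limma, adjusted p = 1.0). With 2 libraries against 2, the exact permutation test of a single value cannot give a p below 0.333.

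Leaving out a library moved these values little at Inpp5f and more at Impact, where the ESC libraries differed most. Without any 1 of the 4 stem cell libraries the difference ranged from 22.5 to 25.5 points at Inpp5f and from 22.4 to 33.7 points at Impact. The ratio of pESC to ESC was 1.99 at Inpp5f and 1.74 at Impact without the first ESC library, and 1.85 and 2.77 without the second. Of all features tested, 8.94% had both pESC libraries above both ESC libraries, and both islands were among them. The Impact intron row was 23.9 points higher in pESC and the Inpp5f intron row 9.79 points higher, neither called. The 5-prime island of Inpp5f was 1.75 points lower in pESC, which became 2.40 points higher without the first ESC library, so no direction can be given for it.

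Set against all 13715 CpG islands with a level in every library, the internal islands stood at the far upper end of the pESC minus ESC differences. The median island differed by -0.0157 points. In all, 12 islands, the Inpp5f island included, differed by as much as Inpp5f or more, and 9, Impact included, by as much as Impact or more. Without the first ESC library these counts were 13 and 20, and without the second they were 12 and 8. At a bound of 20 points, chosen after the values were seen, 14 islands were higher in pESC and 0 were lower. Both counts turned on the ESC libraries, with 30 higher and 1 lower without the first ESC library and 14 higher and 25 lower without the second. By the genes they overlapped, the 14 islands higher with all libraries lay at Airn, Kcnq1ot1, Commd1 and Zrsr1 (2 islands), Gnas (2 islands), Peg13, Peg10, Nap1l5, Impact, Plagl1, Inpp5f, Mid1 and Grb10. Most of these names are textbook imprinted loci at which the egg places the methylation, and Mid1 is a gene of the X chromosome. The largest difference, 60.9 points, was at the island of Airn, the noncoding RNA inside Igf2r.

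**Figure D4:**
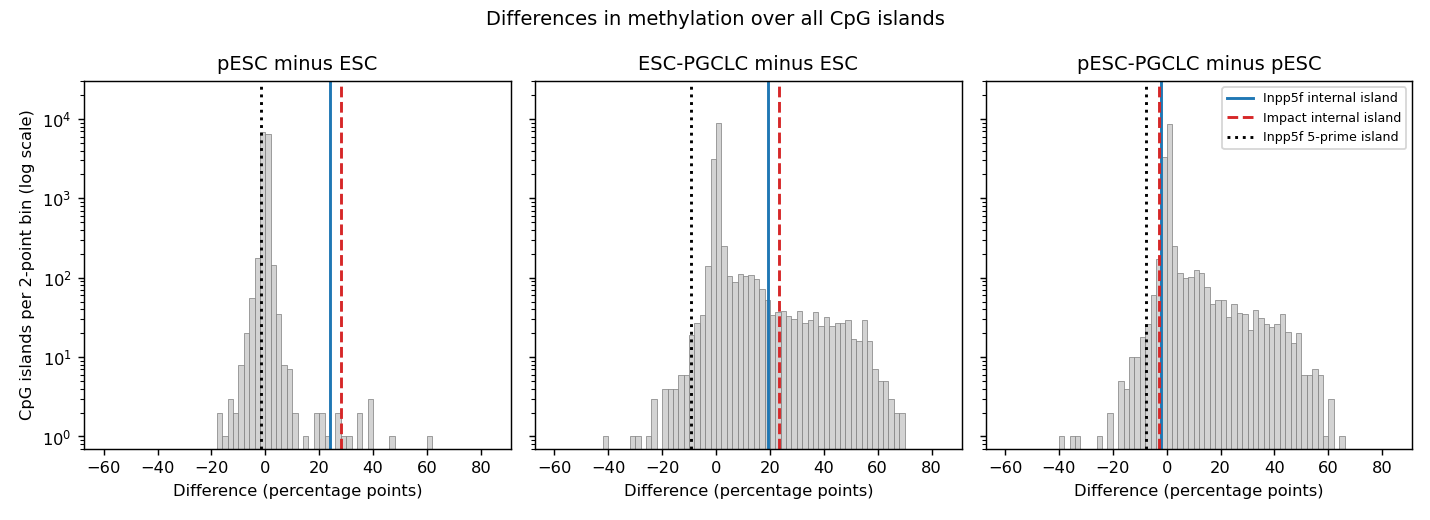
Number of CpG islands (log scale) in each 2-point bin of the difference between group means, in percentage points, for pESC minus ESC, ESC-PGCLC minus ESC and pESC-PGCLC minus pESC. Lines mark the Inpp5f internal island, the Impact island and the Inpp5f 5-prime island. In the first panel the internal islands, at 24.0 and 28.01 points, stand to the right of nearly all 13715 islands. In the second panel, at 19.3 and 23.3 points, 4.25% and 3.77% of islands were as high or higher. In the third panel, at -2.19 and -2.70 points, they stand near 0 but in the lower tail, where 2.11% and 1.604% of islands were as low or lower.

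The next comparison followed the marks in germ cells of the embryo between embryonic day 9.5 and 12.5, the period in which imprints are erased. Both internal islands fell. The Inpp5f island fell by 21.1 points (limma, adjusted p = 0.00176), from 58.8% ± 3.02 to 37.7% ± 5.83. The Impact island fell by 17.1 points (limma, adjusted p = 0.000354), from 59.6% ± 2.02 to 42.5% ± 0.516. Of the 9 features, 5 were called lower, the others being the Impact intron row (-18.3 points), the Inpp5f intron row (-12.7 points) and the Inpp5f promoter row, which repeats the internal island. Across the 137202 features tested, 49.6% were called lower and the median feature moved by -11.5 points, so the call by itself does not set these islands apart.

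Relative to their starting level, the islands lost about as much as the libraries did. The E12.5_PGC mean was 0.641 of the E9.5_PGC mean at Inpp5f and 0.713 at Impact, against 0.667 for the mean over all features and 0.724 for that over all CpG islands. In points, 4.69% of islands fell as far as the Inpp5f island or further and 5.34% as far as the Impact island or further. With each library centred on its own median the differences came to -5.11 points at Inpp5f (limma, adjusted p = 0.641) and -1.13 points at Impact (adjusted p = 0.407), and neither was called, while the calls over all features then split into 46276 higher and 17313 lower in place of 48 higher and 68002 lower. Leaving out 1 library kept both island calls in all 8 cases, whereas the Inpp5f intron row was not called without the first E9.5_PGC library (-10.5 points; limma, adjusted p = 0.0837) or without the first E12.5_PGC library (-9.34 points). The 5-prime island of Inpp5f, the 5-prime UTR row and the exon row were already at 1.88%, 1.89% and 2.02% at embryonic day 9.5 and differed by 0.0895, -0.147 and -0.0821 points. At embryonic day 12.5 neither internal island was free of methylation in any library, with 33.6% the lowest level.

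Against the embryonic germ cells, the induced cells lay between the 2 stages at both internal islands. ESC-PGCLC minus E9.5_PGC was -13.3 points at the Inpp5f island (limma, adjusted p = 0.0206) and -11.7 points at the Impact island (adjusted p = 0.00383). The Impact intron row (-12.1 points) and the Inpp5f promoter row were called lower too, so that 4 of 9 features passed against 29.6% of all features. Since these rows repeat or follow the islands, the calls count as a single observation for each gene. The Inpp5f island was not called without the first E9.5_PGC library (-11.2 points; limma, adjusted p = 0.102), without the first ESC-PGCLC library (-14.8 points; adjusted p = 0.0518) or without the second (-11.7 points; adjusted p = 0.0984), and the Impact island was called in all 8 cases. pESC-PGCLC minus E9.5_PGC was -10.8 points at the Inpp5f island (limma, adjusted p = 0.0355) and -10.6 points at the Impact intron row (adjusted p = 0.00222). The Impact island, at -9.67 points (limma, adjusted p = 0.00547), stayed under the 10-point bound, so that 3 of 9 features passed against 40.2% of all features. These include the Inpp5f promoter row, which repeats the Inpp5f island. The Inpp5f island was called in only 2 of 8 cases with 1 library left out, those without an E12.5_PGC library, with limma adjusted p from 0.0529 to 0.16 in the others, and the Impact island was called without the first E9.5_PGC library (-11.1 points) and without the first pESC-PGCLC library (-10.5 points). After median centring the pESC-PGCLC differences from E9.5_PGC turned to 1.22 points at Inpp5f and 2.39 points at Impact.

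Against E12.5_PGC, no feature of either gene was called. The Impact intron row had an adjusted p under 0.05 in both comparisons but stayed under the 10-point bound. It was 6.13 points higher in ESC-PGCLC (limma, adjusted p = 0.0324) and 7.64 points higher in pESC-PGCLC (limma, adjusted p = 0.038). ESC-PGCLC was 7.81 points above E12.5_PGC at the Inpp5f island (limma, adjusted p = 0.116) and 5.41 points above it at the Impact island (adjusted p = 0.0671), where 22.8% of all features were called. pESC-PGCLC was 10.3 points above it at the Inpp5f island (limma, adjusted p = 0.0917) and 7.45 points above it at the Impact island (adjusted p = 0.051), where 7.1% of all features were called. That share rested on single libraries, since the 9740 features called became 10 without the first pESC-PGCLC library, 387 without the second, 785 and 1793 without the first and second E12.5_PGC library and 5100 and 4788 without the first and second E9.5_PGC library. Without the second E12.5_PGC library, which read 41.9% at Inpp5f where the first read 33.6%, ESC-PGCLC was 11.9 points above E12.5_PGC there and the feature was called. The comparisons with each embryonic stage share their E9.5_PGC or E12.5_PGC libraries and are not independent of each other.

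The 2 kinds of induced cell were also compared directly. pESC-PGCLC exceeded ESC-PGCLC by 2.45 points at the Inpp5f island (0.14 ± 0.19, SE, on the log2 odds scale; limma, adjusted p = 0.744) and by 2.04 points at the Impact island (0.12 ± 0.11; adjusted p = 0.601). None of the 9 features was called, where 0.0948% of all features were. The lowest adjusted p among the 9 was 0.601 and 0 of them reached an unadjusted p under 0.05 in limma. The rule used could not call a difference under 10 points.

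The change on induction was then measured from each kind of stem cell. From ESC to ESC-PGCLC the Inpp5f island rose from 26.2% to 45.5%, by 19.3 points (limma, adjusted p = 0.00527), and the Impact island rose from 24.6% to 47.9%, by 23.3 points (adjusted p = 0.0148). Of 13715 islands, 4.25% rose as much as the Inpp5f island or more and 3.77% as much as the Impact island or more. The ratio of ESC-PGCLC to ESC was 1.74 and 1.95 at these islands, against 1.64 for the mean over all islands. The Impact intron row rose by 19.3 points and the Inpp5f promoter row by 16.3 points, so that 4 of 9 features were called higher against 13.7% of all features. The promoter row repeats the Inpp5f island and the Impact intron row moves with its island, so the calls count as a single observation for each gene. At the same time the 5-prime UTR and exon rows of Inpp5f moved by -16.7 and -15.9 points, so that 2 of 9 were called lower against 0.899% of all features. These rows share sites with each other and count as a single observation. The 5-prime island itself moved by -9.27 points (limma, adjusted p = 0.0148), just under the 10-point bound, and was not called. It was at -5.13 points without the first ESC library and was called, at -13.4 points, without the second. Its ESC-PGCLC mean was 0.227 of its ESC mean. Neither island was called without the first ESC-PGCLC library (17.8 points at Inpp5f, limma adjusted p = 0.058, and 24.0 points at Impact, adjusted p = 0.0712), and the Impact island was not called without the second (22.6 points; adjusted p = 0.0915). Without the first ESC library the 5-prime UTR and exon rows fell short of the 10-point bound, at -7.78 and -7.56 points, and without the second ESC-PGCLC library neither was called (limma, adjusted p = 0.114 and 0.116). Median centring left 6.58 points at the Inpp5f island and 10.5 points at the Impact island, neither called.

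From pESC to pESC-PGCLC the internal islands gave small differences that were not called. The Inpp5f island moved by -2.19 points (limma, adjusted p = 0.815) and the Impact island by -2.70 points (adjusted p = 0.859), and the sign at Impact turned to 0.564 points without the second pESC library. The 5-prime UTR and exon rows of Inpp5f moved by -13.5 and -13.1 points, so that 2 of 9 features were called lower against 0.746% of all features, and the 5-prime island, at -7.55 points (limma, adjusted p = 0.0296), was not called. These features share sites with each other and count as a single observation. Leaving out 1 library ended one or both of these calls in 5 of 8 cases, and the offset of 0.1 and the untransformed levels each left 0 of 9 called. After median centring all 9 features were called lower in this comparison, the Inpp5f island by -12.2 points and the Impact island by -12.7 points. Of the 136848 features tested, 45543 were then called in either direction. How many of these were lower is not given here, so the 9 calls are not set against a share. The centred differences stand relative to the shift of the library medians.

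The difference between these changes was tested in the same fit. The change in pESC minus that in ESC was -21.5 points at the Inpp5f island (-1.33 ± 0.28, SE, on the log2 odds scale; limma, adjusted p = 0.842) and -26.0 points at the Impact island (-1.64 ± 0.44; limma, adjusted p = 1.0). Neither was called, where 0.0365% of all features were. Without any 1 library the difference ranged from -23.1 to -19.99 points at Inpp5f and from -31.6 to -20.3 points at Impact. At the 5-prime island of Inpp5f the difference was 1.72 points. The ESC and pESC libraries enter both this comparison and that of the stem cells with each other, so the values are not independent.

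Neighbouring islands did not show a difference of this size between the stem cells. Within 200000 bp of Inpp5f, 6 other islands had a level in every library, at Rgs10, Tial1 (2 islands), Bag3, Mcmbp and Sec23ip, and their pESC minus ESC differences ran from -0.229 to 0.629 points. The nearest on either side were the Bag3 island, 86895 bp before the gene, with 3.05% in ESC and 3.67% in pESC, and the Mcmbp island, 43359 bp after it, with 1.55% and 1.40%. The exon and intron rows of 8 genes each in this window differed by -3.00 to 3.28 points. Among 9 promoter rows, 1 was at least 10 points higher in pESC, that of the transcript Gm43580, which overlaps the internal island and repeats its levels. Near Impact the islands were both at Osbpl1a, the nearer lying 13896 bp before the gene with 1.19% ± 0.53 (SD, n = 2) in ESC and 1.74% ± 0.931 in pESC.

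The features whose levels came closest to those of the internal islands over the 12 libraries were sought among all 13715 islands by the root mean square (RMS) difference. For both genes the nearest were the Mid1 island and the island of Nap1l5, an imprinted gene inside an intron of Herc3. At Inpp5f these differed by 3.05 and 3.06 points RMS, and at Impact by 4.19 and 4.39. The other gene's island came next in each case, at 4.61 points RMS, followed by islands of Gnas at 5.35 and 8.56 points for Inpp5f and at 5.43 and 8.18 points for Impact. For the Impact intron row the nearest of 18556 intron rows was that of Igf2r at 5.43 points RMS, followed by Rfc2, Mid1, Il6st and Scap. For the Inpp5f intron row the nearest were Ampd3, Ndc80, Fam19a2, Rnf144a and Pitpnb at 2.74 to 3.21 points RMS.

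Other imprinted loci were described with 3 lists. Of 16 genes with a control region methylated in the egg, 13 had a promoter level in every stem cell library, and the pESC minus ESC difference lay above 0 at 12 of these, with a median of 27.7 points against 0.0265 for all promoter rows, and 0 were called. The first 4 in alphabetical order were Grb10, a growth factor receptor adaptor, at 9.54% ± 2.73 (SD, n = 2) in ESC and 14.2% ± 0.726 in pESC, Mcts2 at 2.71% ± 1.49 and 4.95% ± 1.68, Mest at 6.74% ± 0.0252 and 46.2% ± 2.04, and Nap1l5 at 24.3% ± 2.36 and 55.6% ± 1.04. Between embryonic days 9.5 and 12.5, all 12 with a level in the germ cell libraries were called lower, where 49.6% of all features were. The median difference was -22.4 points against -1.49 for all promoter rows. A row near 0% cannot fall far in points, and the mean over promoter rows fell from 23.8% to 15.5%. Loss relative to the starting level was not computed for this list. From ESC to ESC-PGCLC 10 of 12 were called higher, where 13.7% of all features were, with a median of 28.3 points. From pESC to pESC-PGCLC 3 were called higher and 1 lower, where 8.91% and 0.746% of all features were, with a median of 5.09 points. The difference between these changes lay below 0 at all 12, with a median of -21.9 points, and was called at 4, where 0.0183% of all features were called below 0. Without the first or the second ESC library, the median from ESC to ESC-PGCLC was 28.8 and 27.9 points. The median of the difference between the changes was -19.8 and -22.2 points, and its 4 calls did not all hold in either case. The list's median pESC minus ESC difference was then 27.0 and 28.4 points.

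Of the 4 genes with a control region methylated in sperm, all had pESC minus ESC differences below 0, with a median of -3.58 points, and 0 were called. Without the second ESC library 1 of the 4 lay above 0. Between embryonic days 9.5 and 12.5, 2 of the 4, H19 (-18.8 points) and Meg3 (-12.5 points), were called lower, where 49.6% of all features were. Only Meg3 was called lower in ESC-PGCLC and in pESC-PGCLC than in E9.5_PGC, where 29.6% and 40.2% of all features were. The lists were not tested against each other. H19, a maternally expressed noncoding RNA, had 61.0% ± 0.941 (SD, n = 2) in ESC and 46.2% ± 8.98 in pESC. Meg3 had 26.7% ± 2.51 and 19.8% ± 3.24, while the group means of Rasgrf1 and Zdbf2 ran from 1.37% to 2.33%. Introns of 6 genes that host an imprinted element had pESC minus ESC differences above 0 at all 6, with a median of 7.14 points and 0 called. Commd1, the host of Zrsr1, had 2.08% ± 0.017 in ESC and 40.0% ± 0.104 in pESC, whereas Blcap, H13 and Herc3 differed by 9.44, 3.48 and 4.84 points, beside 9.79 points for the Inpp5f intron row.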

How the data were processed

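Genomic DNA of 12 libraries was profiled by RRBS. According to the study's methods and the submitters' processing notes, the authors aligned reads to mm10 with Bismark (version 0.16.3) and Bowtie2, kept unique best alignments and corrected each level for bisulfite non-conversion. The deposited files give, per feature, a fraction of methylated CG, printed here as percent. The minimum coverage and the extent of promoters and shores are not given in the sources used here, and the files hold no counts, so no interval or floor could be computed.

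Each level was turned into log2 odds with an offset of 0.01 added to both parts. Only features measured in all libraries of a fit entered limma (version 3.58.1, R 4.3.3), and p-values were adjusted by Benjamini and Hochberg's method across the whole set. A feature was called at an adjusted p under 0.05 and a difference of at least 10 percentage points. Stem cell libraries (4), germ cells with PGCLCs (8), and stem cells with PGCLCs (8) were fitted separately. The scripts were tested on simulated data. The fits were repeated with an offset of 0.1, untransformed levels, all 12 libraries together, the replicate number as a block, library median centring (differences then stand relative to the library medians), a looser filter, no repeat elements, and each library left out.

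Described features followed this rule: all rows and islands of the 2 genes, the nearest islands within 200000 bp, the 5 most alike rows for each intron row and internal island, and at most 4 genes per list in alphabetical order. The members and lists were chosen with earlier results of these data known. Gene names and transcripts came from GENCODE M21, which held 30041 of 30073 gene identifiers, and sequence from RefSeq (GRCm38.p6, the same assembly as mm10).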

Additional observations from a re-analysis of the deposited data

How the results depend on the processing

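Of 630 differences recomputed under the alternatives that keep all libraries, 564 kept their direction and their side of the call, 23 changed sign, 24 lost a call and 19 gained one. All 23 sign changes came from library median centring, whose differences stand relative to the shift of the library medians, and leaving out repeat elements changed none of the 90 differences. Since the files hold no depth, precision rests on 2 libraries per group.

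Median centring kept none of the lower calls between E12.5_PGC and E9.5_PGC, with -5.11 points at the Inpp5f internal island and -1.13 at the Impact island. It instead called 3 of the 9 features higher in E12.5_PGC, all at the 5-prime end of Inpp5f, against 46276 of all 137202 features. Uncentred, the 5-prime UTR, exon, 5-prime island and shore rows differed by -0.147, -0.0821, 0.0895 and -1.71 points. Between pESC-PGCLC and pESC, where 45543 of 136848 features were called in either direction, median centring called all 9 lower. The internal islands gave -12.2 and -12.7 points, against -2.19 and -2.70 points uncentred. Centring gave -3.18 and -1.60 points at these islands for ESC-PGCLC minus E9.5_PGC, and 6.58 and 10.5 points for ESC-PGCLC minus ESC. It turned the pESC-PGCLC minus E9.5_PGC differences to 1.22 and 2.39 points at these islands, 1.02 at the Inpp5f promoter row, 7.93 at its intron row and 1.42 at the Impact intron row. For ESC-PGCLC minus E12.5_PGC it gave -0.469 points at the Impact island, and at the Inpp5f 5-prime UTR, exon, 5-prime island and shore rows -4.45, -4.41, -5.12 and -2.63 points. For pESC-PGCLC minus E12.5_PGC the same 4 rows gave -2.40, -2.52, -3.21 and -1.22 points. For E12.5_PGC minus E9.5_PGC the 5-prime UTR, exon, intron and shore rows gave 15.8, 15.9, 3.24 and 14.3 points. The Inpp5f intron row gave 4.23 points for ESC-PGCLC minus E9.5_PGC and -8.65 for ESC-PGCLC minus ESC. For pESC-PGCLC minus ESC-PGCLC the exon, 5-prime island and shore rows gave 1.89, 1.92 and 1.41 points. Over all features, centring moved the calls for ESC-PGCLC minus E12.5_PGC from 31238 to 8188, for pESC-PGCLC minus E12.5_PGC from 9740 to 1136, for ESC-PGCLC minus ESC from 19923 to 71359 and for pESC-PGCLC minus pESC from 13219 to 45543. In the fit of all 12 libraries, calls were 13297 for ESC-PGCLC and 619 for pESC-PGCLC against E12.5_PGC. Without repeat elements, which leaves fewer features, these were 16211 and 4640, and 36348 for E12.5_PGC, 25365 for ESC-PGCLC and 31849 for pESC-PGCLC against E9.5_PGC, in place of 68050, 40911 and 55337. For pESC-PGCLC minus ESC-PGCLC the 130 calls became 1337 with an offset of 0.1, 1771 with untransformed levels, 85 in the fit of all 12 libraries, 259 with the looser filter and 67 without repeat elements. The 50 calls for the difference between the changes on induction became 10, 15, 82 and 87 under the first 4 of these.

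In the fit of all 12 libraries the Impact island was not called for ESC-PGCLC minus E9.5_PGC (-11.7 points; limma, adjusted p = 0.0895). For pESC-PGCLC minus pESC, 0 features were called with an offset of 0.1, 0 with untransformed levels and 1 with a level required in at least 1 library of each group. The cause of these changes was not tested.

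Groups shared replicate numbers, but no source used here says what a number marks. Deviations of same-numbered libraries correlated at 0.432 between ESC and pESC, at 0.139 between E9.5_PGC and ESC-PGCLC and from -0.0573 to 0.0665 between the other groups. With 2 numbers per group this does not settle whether they pair the libraries. With the block, 0 features were called between pESC and ESC, as without it, and the islands had limma adjusted p of 0.686 at Inpp5f and 0.528 at Impact. With the replicate number as a block, 1 feature in place of 3 was called for pESC-PGCLC minus E9.5_PGC, where the Inpp5f island gave -10.8 points (limma, adjusted p = 0.0581), and calls over all features moved from 130 to 38 for pESC-PGCLC minus ESC-PGCLC.

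Leaving out each library in turn, calls over all features ran from 0 to 742 for pESC minus ESC, 10 to 6667 for pESC-PGCLC minus E12.5_PGC, 29 to 397 for pESC-PGCLC minus ESC-PGCLC, 12306 to 35492 for ESC-PGCLC minus ESC, 7471 to 19588 for pESC-PGCLC minus pESC and 0 to 165 for the difference between the changes. The number of called features of the 2 genes ran from 2 to 4 for ESC-PGCLC minus E9.5_PGC, 0 to 3 for pESC-PGCLC minus E9.5_PGC, 0 to 2 for ESC-PGCLC minus E12.5_PGC, 1 to 8 for ESC-PGCLC minus ESC and 0 to 2 for pESC-PGCLC minus pESC. At the Inpp5f island the differences in the first 4 of these comparisons ran from -15.4 to -11.2, -13.0 to -8.70, 3.69 to 11.9 and 17.8 to 20.9 points. At the Impact island they ran from -11.1 to -8.24 points for pESC-PGCLC minus E9.5_PGC, 17.6 to 28.9 for ESC-PGCLC minus ESC and -5.96 to 0.564 for pESC-PGCLC minus pESC. The pESC minus ESC differences at the 5-prime UTR, exon, 5-prime island and shore rows ran from -12.0 to 5.79, -11.1 to 5.52, -5.89 to 2.40 and -8.88 to 3.48 points, and changed sign without the first ESC library. For the difference between the changes on induction the same rows ran from -5.69 to 12.1, -5.57 to 11.02, -2.43 to 5.86 and -4.02 to 8.34 points. For E12.5_PGC minus E9.5_PGC the 5-prime UTR, exon and 5-prime island rows ran from -0.723 to 0.429, -0.604 to 0.440 and -0.305 to 0.484 points. For pESC-PGCLC minus ESC-PGCLC the 5-prime UTR, exon, intron, 5-prime island and shore rows ran from -0.951 to 1.15, -1.05 to 0.946, -1.36 to 4.86, -0.619 to 0.559 and -1.74 to 0.658 points.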
